A study of Mus musculus with 6 samples.

Results

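The commitment and fusion genes of skeletal muscle were followed through 6 mouse osteosarcomas. The set holds 10 of the 56196 genes in the count table: Pax3, Pax7, Myf5, Myod1, Myog, Myf6, Mymk, Mef2c, Msc and Des. They were chosen by name, with the values of these tumours already known, so their levels are given as a description and carry no test. All tumours came from mice in which an Osx1-Cre transgene, active in osteoblast precursors, deletes floxed copies of the tumour suppressors Rb1 and Trp53 (labelled Rb1lox/lox and p53lox/lox). The 3 triple-knockout tumours (TKO) also carried SKP2-/- alleles, which remove Skp2, the F-box protein by which a ubiquitin ligase picks its substrates, and the 3 double-knockout tumours (DKO) are labelled with no Skp2 allele. Replicate 1 of each group was a male mouse's tumour and replicates 2 and 3 were from females. Ages are not labelled. The labels do not say whether the tumours were taken from separate animals, and the p-values below reflect only how these 6 samples vary. Levels are given as CPM, read counts scaled to a common library size, and folds as TKO over DKO.

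Skeletal muscle forms from progenitors and satellite cells, which carry the paired-box factors Pax3 and Pax7. Commitment is set by a family of 4 basic helix-loop-helix (bHLH) transcription factors, Myf5 and Myod1 early, Myog at the onset of differentiation and Myf6 mostly in fibres. They bind E-boxes, short DNA motifs with the letters CANNTG, and act with MEF2 proteins. Mononucleate myoblasts then fuse through the membrane protein myomaker, the product of Mymk, and the fibres fill with sarcomeres tied together by the intermediate filament desmin, the product of Des.

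RefSeq promoter windows (GRCm38.p6, the assembly of the mm10 build that the files use) were at hand for 5 of the 10 genes, Pax7, Myf5, Myog, Mef2c and Des. The 250 bases before the gene start are printed for 3 genes that differed widely among the TKO tumours: a commitment factor, a differentiation factor and a filament gene. All are written 5′ to 3′ on the gene's own strand, with E-boxes in capitals. Starts here, and the distances below, are those of RefSeq. GENCODE starts Myog at 134289989, inside the printed window, and Des at 75360329, past the end of its window. For Myf5 the 2 starts are the same.
Myf5, chr10:107486135-107486384, minus strand: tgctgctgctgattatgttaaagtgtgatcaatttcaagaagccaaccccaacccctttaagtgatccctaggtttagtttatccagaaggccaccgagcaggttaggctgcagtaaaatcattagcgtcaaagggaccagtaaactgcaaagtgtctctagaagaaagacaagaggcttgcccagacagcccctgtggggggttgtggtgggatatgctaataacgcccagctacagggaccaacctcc
Myog, chr1:134289754-134290003, plus strand: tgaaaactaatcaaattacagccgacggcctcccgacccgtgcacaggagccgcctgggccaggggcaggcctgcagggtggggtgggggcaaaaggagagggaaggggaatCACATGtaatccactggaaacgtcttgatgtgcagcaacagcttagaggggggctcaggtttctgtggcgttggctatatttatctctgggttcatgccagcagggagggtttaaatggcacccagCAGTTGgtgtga
Des, chr1:75360042-75360291, plus strand: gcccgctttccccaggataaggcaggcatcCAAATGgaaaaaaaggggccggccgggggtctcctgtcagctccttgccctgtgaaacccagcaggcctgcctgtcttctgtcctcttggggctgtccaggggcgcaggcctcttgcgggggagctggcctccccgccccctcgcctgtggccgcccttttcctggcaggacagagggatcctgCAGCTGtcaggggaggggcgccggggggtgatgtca
The Myog window held 2 E-boxes, CACATG and CAGTTG, which began 138 and 12 bases before the start. The Des window also held 2, CAAATG and CAGCTG, 220 and 36 bases before the start, and the Myf5 window none. Of 32851 windows of the same length over 27025 genes, 66.2% held at least 1 E-box and 31.8% at least 2, so the motif is common. The narrower form CAGCTG was in 13% of windows. The MEF3 motif TCAGGTTTC, searched on both strands, lay 84 bases before the start of Myog, and 0.387% of all windows held it. These are matches of letters and not measured binding sites.

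The depth was 17063231 to 22488819 gene counts per library. Skp2 had 0 counts in each TKO library, against 20 in DKO1, 64 in DKO2 and 46 in DKO3. TKO1 was the least like the others of its group. Across the genes tested, the correlation of log2 CPM was 0.83 between TKO1 and TKO2 and 0.805 between TKO1 and TKO3. It was 0.915 between TKO2 and TKO3, and 0.933 to 0.954 among the DKO tumours. The osteosarcoma label was checked against osteoblast genes. Runx2, the early osteoblast factor, had 58.2 to 241 CPM in TKO and 83 to 96.8 CPM in DKO. The later factor Sp7 had 0, 206 and 432 CPM in TKO1, TKO2 and TKO3 and 7.94, 0 and 0.414 CPM in DKO1, DKO2 and DKO3. The matrix gene Ibsp was at 0 in TKO1, DKO2 and DKO3. The osteocyte gene Dmp1 had 16.3 CPM in TKO1 and 0 counts in each DKO library.

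Muscle commitment genes were read mainly in the TKO tumours, which differed in the genes they held. TKO1 had high Myf5, Myod1, Myog and Mymk with little Des. TKO2 had very high Des and the highest Myf6, with little of the commitment factors and no Myf5 count, and TKO3 also had more Des than TKO1 and no Myf5 count. Myod1, Myog, Myf6 and Mymk had no count at all in any DKO library. Bulk RNA cannot tell fewer cells of a type from less RNA per cell.

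**Figure D1:**
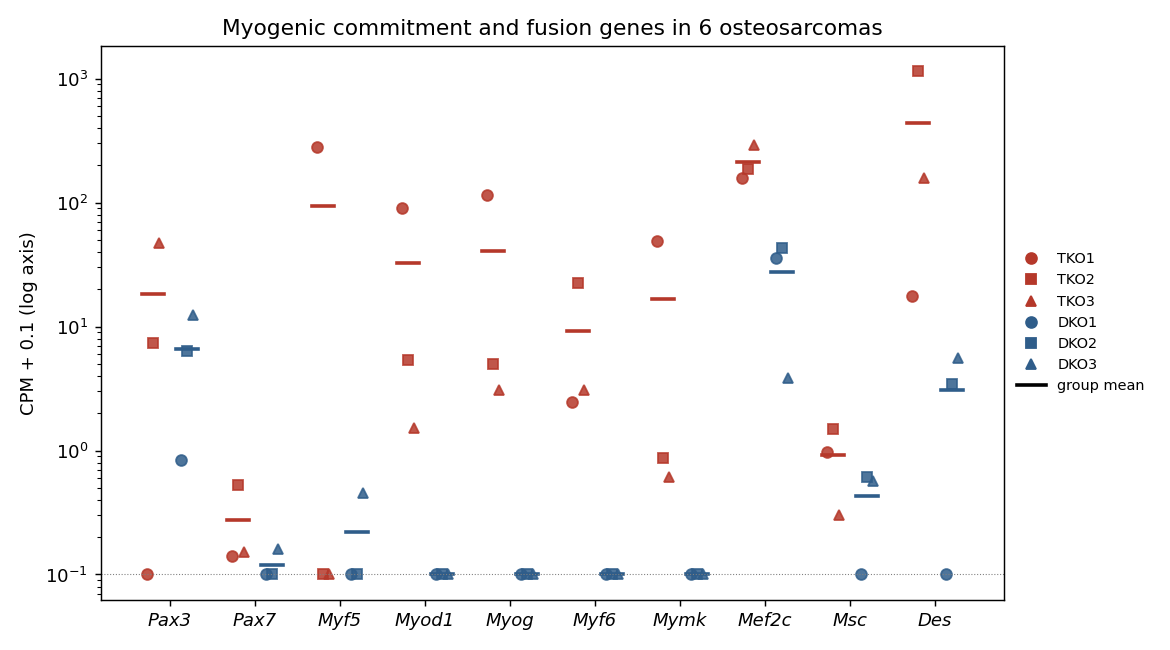
Levels of the 10 genes in each tumour as CPM + 0.1 on a log axis, TKO in red and DKO in blue, with horizontal bars for group means and the dotted line at 0 counts. Myod1, Myog, Myf6 and Mymk lie at 0 in all 3 DKO tumours, and TKO1 is the highest tumour for Myf5 (283 CPM) but the lowest TKO tumour for Des (17.5 CPM).

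Among the progenitor genes, Pax3 (ENSMUSG00000004872.15, chromosome 1, 78101267 to 78197134, GRCm38) overlapped between the groups. The level was 0, 7.26 and 47.2 CPM in TKO1, TKO2 and TKO3, against 0.744, 6.21 and 12.4 CPM in DKO1, DKO2 and DKO3. TKO1, the tumour richest in commitment factors, was the only library of the 6 with no Pax3 count, while TKO3 had the highest level. The mean was 18.2 ± 25.4 CPM in TKO and 6.44 ± 5.81 CPM in DKO (SD, n = 3 each), a fitted log2 fold change of 1.49 (SE 1.82) that turned to -0.82 without TKO3. Pax7 (ENSMUSG00000028736.13, chromosome 4, 139737062 to 139833528), the satellite cell factor, was barely detected. Its counts were 1 in TKO1, 9 in TKO2 and 1 in TKO3, against 0 in DKO1 and DKO2 and 1 in DKO3, a ratio of summed counts of 9.66 with an exact 95% counting interval of 1.4 to 416. Neither its level in TKO2, 0.432 CPM, nor any other reached 1 CPM, and Pax7 did not pass the count filter.

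Myf5 (ENSMUSG00000000435.1, chromosome 10, 107482908 to 107486134), the earliest of the commitment factors, was high in 1 tumour. TKO1 had 6819 counts, or 283 CPM, and TKO2 and TKO3 had 0 counts. DKO1 and DKO2 also had 0 counts, and DKO3 had 6, or 0.355 CPM. A count of 0 allows up to 3 counts, or 0.144 CPM in TKO2 and 0.152 CPM in TKO3, which puts TKO1 at least 1960-fold above TKO2 and at least 1860-fold above TKO3. Myf5 did not pass the count filter, which asks for enough reads in 3 libraries, and it has no fitted fold change.

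Myod1 (ENSMUSG00000009471.4, chromosome 7, 46376474 to 46379099), the classical commitment factor, had 90.2, 5.24 and 1.42 CPM in TKO1, TKO2 and TKO3 and 0 counts in each DKO library. Every TKO tumour was above every DKO tumour, and TKO1 was 17.2-fold above TKO2 and 63.4-fold above TKO3. Over the groups Myod1 was at least 676-fold higher in TKO, with DKO set to 3 counts over the group. Myog (ENSMUSG00000026459.5, chromosome 1, 134289989 to 134292548), which starts terminal differentiation, had 115, 4.9 and 2.95 CPM in TKO1, TKO2 and TKO3 and again 0 counts in each DKO library. It was at least 856-fold higher in TKO, and 23.4-fold and 38.9-fold higher in TKO1 than in TKO2 and TKO3. The printed Myog window, with its E-boxes and MEF3 match, belongs to a gene read in every TKO tumour and in no DKO tumour.

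Myf6 (ENSMUSG00000035923.4, chromosome 10, 107492853 to 107494737), the bHLH factor most tied to mature fibres, ran in the other order. It had 2.37, 22.2 and 2.95 CPM in TKO1, TKO2 and TKO3 and 0 counts in each DKO library, at least 169-fold higher in TKO. TKO2 was 9.4-fold above TKO1 and 7.55-fold above TKO3, while TKO1 and TKO3 differed by 1.24-fold. Myf5 and Myf6 are neighbours on chromosome 10 with 6718 bases between them. TKO1 carried nearly all reads of the one and TKO2 most of the other. Per kilobase of exon, Myf5 made up 51.7% of the summed level of the 4 bHLH factors in TKO1, Myog 29.2%, Myod1 18.4% and Myf6 0.713%. In TKO2 Myf6 made up 74.3%, Myog 13.8% and Myod1 11.9%, and in TKO3 Myf6 made up 46% and Myog 38.9%. As a share of counts, Myf6 was 57 of 11811 in TKO1 (0.483%, exact Clopper-Pearson 95% interval 0.366 to 0.625%), 463 of 674 in TKO2 (68.7%, 65 to 72.2%) and 58 of 144 in TKO3 (40.3%, 32.2 to 48.8%), so the 3 intervals do not overlap. No molecular identifiers are named for these libraries, and the intervals and floors cover counting error only.

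**Figure D2:**
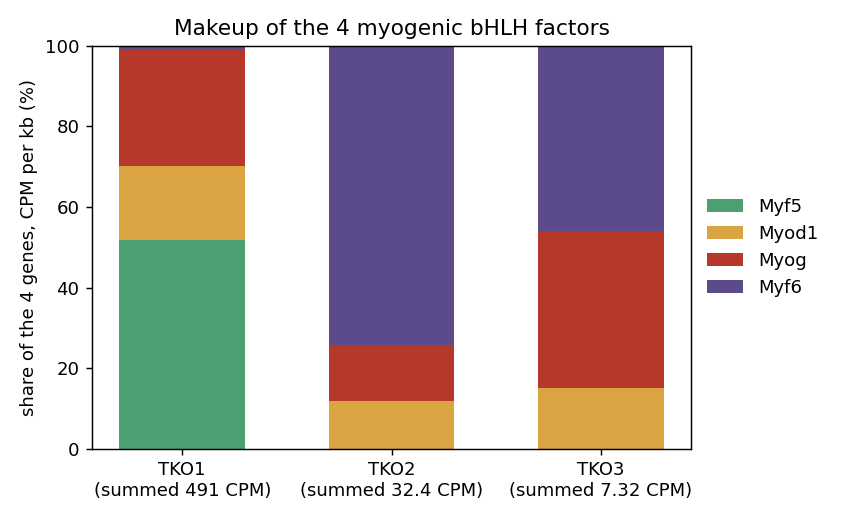
Share of each of the 4 myogenic bHLH factors in their summed level in the 3 TKO tumours, in percent of CPM per kilobase of exon, with the summed CPM under each bar. Myf5 makes up 51.7% in TKO1 and has no reads in TKO2 and TKO3, where Myf6 is the largest part.

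Mymk (ENSMUSG00000009214.9, chromosome 2, 27061636 to 27072179), the gene of the fusion protein myomaker, followed the commitment factors. It had 48.7, 0.769 and 0.508 CPM in TKO1, TKO2 and TKO3, from 1172, 16 and 10 counts, and 0 counts in each DKO library. TKO1 was 63.3-fold above TKO2 and 95.8-fold above TKO3, and the groups did not overlap, with Mymk at least 351-fold higher in TKO. Its partner in fusion, Mymx (myomixer), is outside the 10 genes. It had 93 counts in TKO1, 5 in TKO2, 3 in TKO3 and 0 in each DKO library. TKO1 had the most reads of both fusion genes.

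Mef2c (ENSMUSG00000005583.16, chromosome 13, 83504034 to 83667080), a MADS-box partner of the bHLH factors that is also used by vessel, B and bone cells, was the most even of the 10 genes among TKO tumours. It had 158, 187 and 289 CPM in TKO1, TKO2 and TKO3 and 35.6, 43.2 and 3.73 CPM in DKO1, DKO2 and DKO3. All TKO values were above all DKO values, with means of 211 ± 69.2 CPM in TKO and 27.5 ± 20.9 CPM in DKO (SD, n = 3 each), a log2 fold change of 2.94 (SE 0.83). The largest difference among TKO tumours was 1.83-fold, between TKO3 and TKO1. Msc (ENSMUSG00000025930.6, chromosome 1, 14753346 to 14755992), which codes for musculin, a bHLH repressor of the MYOD family, stayed low. It had 0.872, 1.39 and 0.203 CPM in TKO1, TKO2 and TKO3 and 0, 0.509 and 0.473 CPM in DKO1, DKO2 and DKO3. The groups overlapped (log2 fold change 1.33, SE 1.19). Gm9947 shares 21.2% of the exon bases of Msc, and 72 reads were counted for Msc without regard to strand against 95 by strand, so its level may be undercounted.

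Des (ENSMUSG00000026208.9, chromosome 1, 75360329 to 75368579) had 17.5, 1150 and 159 CPM in TKO1, TKO2 and TKO3 and 0, 3.36 and 5.5 CPM in DKO1, DKO2 and DKO3. The groups did not overlap, but TKO2 was 65.6-fold above TKO1 and 7.24-fold above TKO3, and the lowest TKO tumour was TKO1. The mean was 442 ± 617 CPM in TKO and 2.95 ± 2.77 CPM in DKO (SD, n = 3 each), with a log2 fold change of 7.23 (SE 2.09), or 4.91 without TKO2. Per kilobase, Myog was 16.4 times the level of Des in TKO1, whereas Des was 93.5 times the level of Myog in TKO2 and 21.5 times in TKO3. Both genes have 2 E-boxes in the printed windows, and they were highest in different tumours.

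Within a tumour, levels per kilobase of exon put different genes first, while Myog, Myod1 and Mymk kept their order in each TKO tumour. In TKO1 Myf5 led with 136 CPM per kb, followed by Myog with 76.8, Myod1 with 48.5 and Mymk with 32.2 CPM per kb, and then Mef2c with 10 and Des with 4.67 CPM per kb. In TKO2 Des led with 306 CPM per kb, followed by Myf6 with 17.6 and Mef2c with 11.9 CPM per kb. Myog was at 3.28, Myod1 at 2.81 and Mymk at 0.509 CPM per kb. TKO3 had Des at 42.3, Mef2c at 18.4 and Pax3 at 7.63 CPM per kb. In the DKO tumours Mef2c led in DKO1 and DKO2 with 2.26 and 2.75 CPM per kb and Pax3 in DKO3 with 2 CPM per kb. The length used merges all annotated exons of a gene. It is 15715 bases for Mef2c, against 1263 for Myf6 and 2083 for Myf5, so the rank of Mef2c depends on this choice.

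Counted together, 6 of the 10 genes lay higher in all 3 TKO tumours than in any DKO tumour (Myod1, Myog, Myf6, Mymk, Mef2c and Des), against 17.3% of the 15361 genes tested. Of the 10, 8 passed the count filter and 1, Myf6, was called higher by edgeR's quasi-likelihood test at an adjusted p under 0.05, against 4.89% of tested genes called higher, 2.47% called lower and 7.36% called in either direction. These values chose the genes, so nothing is read from the counts. The number called was 5 without TKO1, and 0 without TKO2, TKO3, DKO1, DKO2 or DKO3.

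The other genes of the myogenic programme were taken from lists, chosen with earlier results of these tumours known, and tested over all genes. Of 13 further satellite cell genes 10 were tested, of which 3 rose in TKO (Heyl, Megf10 and Cdh15) and 0 were lower by edgeR. The list's median log2 fold change was 2.26, against 0.09 for all genes tested. Cdh15, the M-cadherin of myoblasts and satellite cells, had 518, 4.95 and 34.1 CPM in TKO1, TKO2 and TKO3 and 0, 0.407 and 0.0592 CPM in DKO1, DKO2 and DKO3 (log2 fold change 10.15, SE 2.26, adjusted p = 0.0449 in edgeR). It was highest in TKO1, like Myod1. Heyl, a Notch target, was even among TKO tumours. It had 15 CPM in TKO1, 18.6 in TKO2, 15.9 in TKO3 and 0 counts in DKO, at least 311-fold higher (edgeR adjusted p = 0.0112). Megf10, a satellite cell receptor, rose by a log2 fold change of 7.67 (SE 1.27, edgeR adjusted p = 0.0236), and the fourth gene by p, the Notch target Hes1, had 117, 26.1 and 27.3 CPM in TKO and 18.2, 9.42 and 10.9 CPM in DKO (edgeR adjusted p = 0.11). Without TKO3 the list had 1 call, without TKO1 it had 5, and without DKO2 or DKO3 it had 0. It had 2 by limma-voom and 1 without the count filter.

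Of 16 cofactors 12 were tested and 1, Smyd1, rose in TKO, with none lower (median log2 fold change 0.52). With 4.89% of all tested genes called higher, 1 call is not read as a rise of the cofactors as a class. Smyd1, a muscle methyltransferase, had 86.8, 37.6 and 5.94 CPM in TKO1, TKO2 and TKO3 and 0.397, 0.102 and 0.237 CPM in DKO1, DKO2 and DKO3 (log2 fold change 7.43, SE 1.18, edgeR adjusted p = 0.0216). Eya1, a gene of a transcriptional coactivator, had 81.6, 41.6 and 6.45 CPM in TKO and 6.3, 6.31 and 12.1 CPM in DKO (edgeR adjusted p = 0.14), and the E-protein gene Tcf12, whose product pairs with the bHLH factors, had 185, 124 and 90.1 CPM in TKO and 328, 178 and 213 CPM in DKO (edgeR adjusted p = 0.22). The cofactor list had 3 calls without TKO1, 2 without TKO3 and 0 without any 1 of the DKO tumours, and 0 by limma-voom.

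Of 12 inhibitors of myogenesis 10 were tested, and 2 rose in TKO and none fell (median log2 fold change 0.62). Both code for ID proteins, which bind E-proteins and keep bHLH factors off DNA. Id3 had 43.9, 477 and 594 CPM in TKO1, TKO2 and TKO3 and 6.35, 12.3 and 11.2 CPM in DKO1, DKO2 and DKO3 (log2 fold change 5.22, SE 0.98, edgeR adjusted p = 0.0306). TKO1, with the most Myod1, had the least Id3 of the TKO tumours. Id1 rose by a log2 fold change of 2.25 (SE 0.44, edgeR adjusted p = 0.0333), while Snai2 and Mdfi had log2 fold changes of 1.09 and 2.88 with edgeR adjusted p-values of 0.066 and 0.193. The inhibitor list had 4 calls without TKO1 and 0 without any 1 of the other 5 libraries. It had 0 by limma-voom and 1 without the count filter.

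Of 20 further fusion genes 17 were tested and 1, Tmem182, rose in TKO, with none lower (median log2 fold change 0.53). Over all tested genes 4.89% were called higher, so 1 call is not read as a rise of the fusion genes as a class. Tmem182, a muscle membrane protein reported in mouse to restrain fusion, had 364, 19.8 and 16.9 CPM in TKO1, TKO2 and TKO3 and 0.248, 0.102 and 0 CPM in DKO1, DKO2 and DKO3 (log2 fold change 10.03, SE 1.87, edgeR adjusted p = 0.0301). Kirrel, an adhesion gene, had 407, 396 and 499 CPM in TKO and 199, 225 and 165 CPM in DKO, with an edgeR adjusted p of 0.053. The membrane repair gene Dysf and the cadherin gene Cdh2 had edgeR adjusted p-values of 0.11 and 0.136. The fusion list had 3 calls without TKO1 and 0 without any 1 of the DKO tumours or without the count filter.

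None of the 9 desmin partners and other filament genes passed edgeR's threshold (median log2 fold change 0.71, or -0.33 without TKO1). Of them 2 had an unadjusted p under 0.05, Cryab higher and Plec lower, and 1 was called higher by DESeq2, 0 by limma-voom and 2 by edgeR without TKO1. Cryab, a chaperone of desmin, had 59.4, 394 and 96.3 CPM in TKO and 7.19, 33.4 and 18.6 CPM in DKO (edgeR adjusted p = 0.0778). The filament gene Synm had 3.41, 133 and 34.4 CPM in TKO1, TKO2 and TKO3, in the order of Des, and Nes had 450, 57.5 and 32 CPM, in the order of Myog. Synm and Nes had edgeR adjusted p-values of 0.223 and 0.269, and Plec, a linker gene with 601, 554 and 344 CPM in TKO and 889, 856 and 1210 CPM in DKO, one of 0.145. In DKO1, DKO2 and DKO3, Synm had 8.49, 14.8 and 2.54 CPM and Nes 5.01, 39.4 and 57.4 CPM.

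The contrast among TKO tumours ran through fibre genes as well. Of 8 immature fibre markers 7 were tested and 2 rose in TKO, Myl4 and Myh3, with none lower (median log2 fold change 3.99). Myh3, the embryonic myosin heavy chain, had 17.2, 3.27 and 1.83 CPM in TKO1, TKO2 and TKO3 and 0.0992, 0 and 0.118 CPM in DKO1, DKO2 and DKO3 (edgeR adjusted p = 0.0366). Myl4, an atrial and fetal muscle light chain gene, rose by a log2 fold change of 3.99 (SE 0.59, edgeR adjusted p = 0.0182). It peaked in TKO2 at 12.8 CPM, above the 6.52 CPM of TKO1 and the 7.87 CPM of TKO3. Myh8, which did not pass the count filter, also peaked in TKO2. It had 37 counts there, against 29 for TKO3 and 0 for TKO1. Of the 8 listed markers 6 were higher in TKO1 than in TKO2, and the 2 lower ones were Myl4 and Myh8. Tnnt2 and the fetal acetylcholine receptor subunit gene Chrng were highest in TKO1, at 76.7 and 10.2 CPM, with edgeR adjusted p-values of 0.078 and 0.0844. The receptor subunit gene Chrna1 was not confined to TKO: it had 388, 16.9 and 7.52 CPM in TKO1, TKO2 and TKO3 and 175, 22.1 and 28.5 CPM in DKO1, DKO2 and DKO3. The immature list had 1 call without TKO2, 1 without TKO3, 3 without TKO1, 0 without any 1 of the DKO tumours and 1 by limma-voom.

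Of 20 adult fibre markers 17 were tested and 16 rose in TKO, with none lower and a median log2 fold change of 9.89. The list's summed level was 651, 14100 and 2650 CPM in TKO1, TKO2 and TKO3 and 7.59, 16.2 and 19.3 CPM in DKO1, DKO2 and DKO3. Myl1, a fast light chain gene, had 128, 524 and 73.7 CPM in TKO and at most 0.118 CPM in DKO (log2 fold change 11.61, SE 1.28, edgeR adjusted p = 0.0118). The skeletal actin gene Acta1 had 65.2, 3370 and 543 CPM in TKO1, TKO2 and TKO3, the order of Des. Ttn, Tnni2 and Myh1, the genes of titin, a fast troponin and a fast myosin, had log2 fold changes of 6.02, 12.93 and 12.87 (edgeR adjusted p = 0.0128, 0.0129 and 0.0144). Tnnc2, another fast troponin gene, is listed at 0 in all 6 libraries, but its exons share 74% of their bases with Ube2c. The single-strand columns assign it 15519 reads, from which reads of Ube2c cannot be separated, so its level is not known. The adult list had 18 calls without TKO1, 9 without TKO2, 6 without TKO3 and 0 without any 1 of the DKO tumours. It had 5 by limma-voom and 6 without the count filter.

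Set against the adult markers, the commitment factors were far more abundant in TKO1 than in the other TKO tumours. The summed CPM of the 4 bHLH factors was 75.3% of the summed adult markers in TKO1, 0.23% in TKO2 and 0.277% in TKO3. Immature markers summed to 96.8% of the adult markers in TKO1, 1.12% in TKO2 and 2.58% in TKO3. Of the 630 CPM of immature markers in TKO1, Chrna1 gave 388 and Ncam1 122 CPM, and neither was confined to TKO. The immature list summed to 236, 69.5 and 77.4 CPM in DKO1, DKO2 and DKO3, against 157 CPM in TKO2 and 68.1 CPM in TKO3. On the scale of log2(CPM + 0.5), TKO1 lay above TKO2 by 9.15 for Myf5, 5.28 for Mymk, 4.42 for Myog and 3.98 for Myod1. The same difference, TKO1 minus TKO2, was -6.0 for Des, -3.96 for Pax3 and -2.99 for Myf6. Of all tested genes 0.293% had a difference as high as that of Myod1, and 55.5% one as high as that of Mef2c. Both genes were chosen with these values known, so nothing is read from the shares. The adult markers lay lower in TKO1 than in TKO2 in 19 of 20 genes, with Tnnc2 at 0 in both (median difference -4.76), while 46.3% of all tested genes lay higher in TKO1. With 1 library each, this describes these 2 tumours and has no replicate check.

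**Figure D3:**
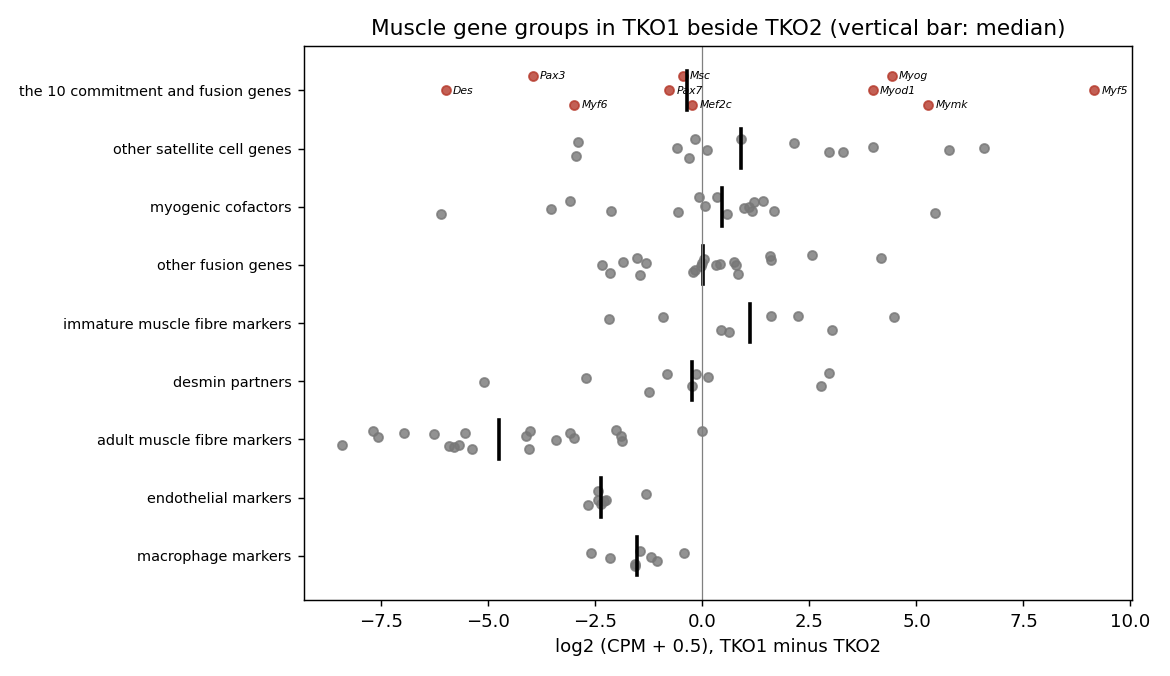
Difference between TKO1 and TKO2 for each gene on the scale of log2(CPM + 0.5), by gene group, with a black bar at the median of the group. Myf5, Myod1, Myog and Mymk lie to the right (3.98 to 9.15), while Des and the adult fibre markers lie to the left (list median -4.76).

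Across all fixed lists outside the 10 genes, 159 genes in 16 lists, 123 were tested and 52 rose in TKO with none lower by edgeR, against 7.36% of all tested genes called. The count was 71 without TKO1, 35 without TKO2, 26 without TKO3, 8 without DKO1 and 0 without DKO2 or DKO3, where 74 and 78 genes had an unadjusted p under 0.05, 72 and 76 of them higher. Of 33 named genes called with all libraries, 32 were also called without TKO1, 24 without TKO2, 19 without TKO3, 6 without DKO1 and none without DKO2 or DKO3.

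Other cell types differed between the groups alongside the muscle genes, and their part in the levels of the 10 genes was not tested. All 8 macrophage markers rose, with summed levels of 875 to 2320 CPM in TKO and 1.48 to 2.93 CPM in DKO, where C1qa, C1qb and C1qc were at 0. All 7 endothelial markers rose, with 110 to 609 CPM in TKO and 3.67 to 6.35 CPM in DKO, and 4 of the 5 red cell markers, with 88.5 to 1160 CPM in TKO and 0.496 to 1.27 CPM in DKO. Their median log2 fold changes were 11.85 for macrophages (10.96 with genes at 0 in DKO set to their bound), 8.09 for vessels and 10.78 for red cells (9.25 at the bound). The globin genes are near-identical copies, so reads shared among them are not counted. The macrophage and endothelial sums were lowest in TKO1, as was Mef2c among TKO tumours. Of 8 smooth muscle markers, which matter here because smooth muscle also uses desmin, 2 rose, Acta2 and Myh11 (median log2 fold change 2.46). Acta2 had 421, 154 and 68.6 CPM in TKO1, TKO2 and TKO3, and 19.1 to 21.5 CPM in DKO, while Myh11, the defining smooth muscle myosin, reached 8.27 CPM in TKO2. Of the 7 tested, 5 were highest in TKO2, like Des, and 6 of the 8 listed were lower in TKO1 than in TKO2 (median difference -1.54 in log2(CPM + 0.5)). Synpo2 had 11.9, 72.7 and 17.9 CPM in TKO1, TKO2 and TKO3, against 1.84 to 20.1 CPM in DKO, and Smtn had 29.1, 78.9 and 36.7 CPM in the TKO tumours, against 58.8 to 142 CPM in DKO. Both ran in the order of Des among TKO tumours, and Acta2 did not. Tagln, at 0.24 to 0.711 CPM in TKO and 0 in DKO, shares 67.9% of its exon bases with other genes and has 30 reads counted without regard to strand against 2241 by strand. Without TKO3, 4 endothelial, 1 red cell and 1 smooth muscle gene passed, and without TKO2 no smooth muscle gene passed, with its median at 0.68. Without TKO1, 3 smooth muscle genes passed. Without any 1 of the DKO tumours no endothelial, red cell or smooth muscle gene passed, and 6, 0 and 0 macrophage genes passed without DKO1, DKO2 and DKO3.

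Of 8 B and plasma cell markers 3 rose, Jchain, Cd22 and Cd79a (list sum 18.9 to 82 CPM in TKO and 0.473 to 2.29 CPM in DKO, median log2 fold change 8.03, or 6.46 at the bound). The B cell gene Ms4a1 had at most 0.305 CPM in any library. Of 8 osteoblast and osteocyte markers 2 rose, Dmp1 and Phex (median log2 fold change 7.51), with a list sum of 120, 1230 and 5130 CPM in TKO1, TKO2 and TKO3 and 83.9 to 128 CPM in DKO. TKO3, the tumour with the most Mef2c and Pax3, had the highest sum. Of 5 chondrocyte markers 1 rose, Comp (median 5.12 over the 2 tested). Of 7 Schwann cell and melanocyte markers 3 were tested and 0 passed by edgeR, DESeq2 or limma-voom, with 0 at an unadjusted p under 0.05 (median 1.56), although 1 passed without TKO1. Among them Sox10 and Tyr, defining genes of the crest lineages that also use Pax3, had at most 0.288 CPM. Of 5 heart markers only Tnni3 could be tested and it did not pass (log2 fold change -1.84, edgeR unadjusted p = 0.0276, adjusted p = 0.145), although DESeq2 called it lower, and the cardiac gene Nkx2-5 had no count in any TKO library. Without TKO2 the B cell, osteoblast and chondrocyte lists had 1, 1 and 0 calls, without TKO3 1, 0 and 0, and without TKO1 4, 4 and 2. No gene of these lists passed without any 1 of the DKO tumours. By limma-voom they had 2, 1 and 0 calls, and the osteoblast list had 0 without the count filter.

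**Figure D4:**
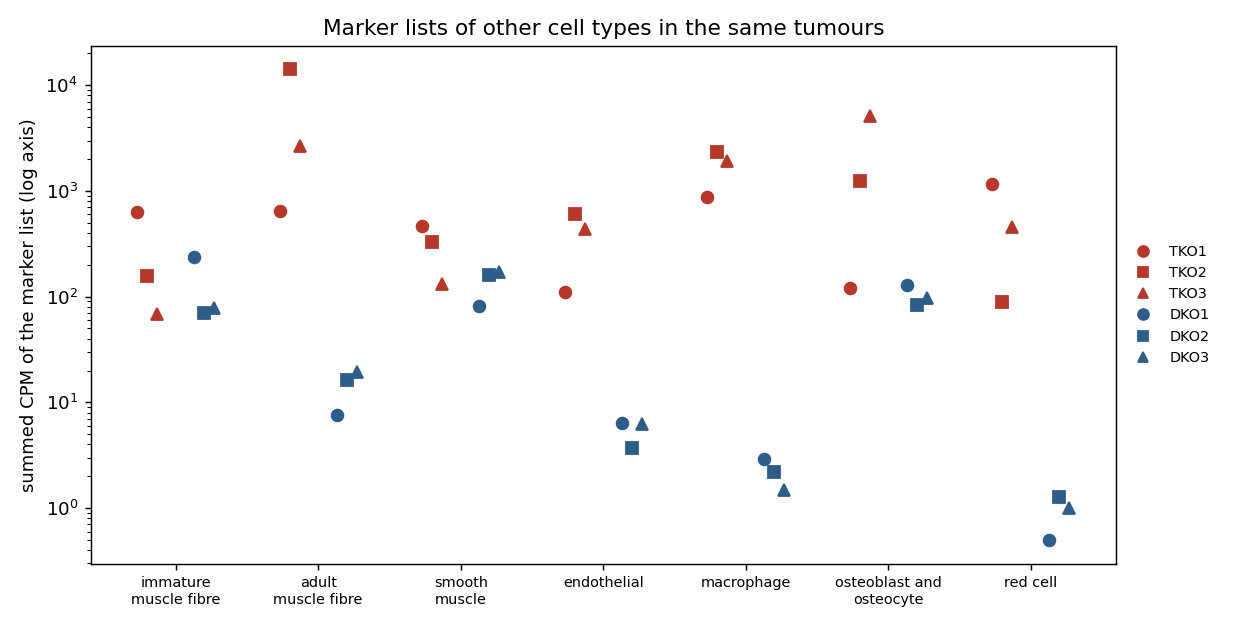
Summed CPM of 7 marker lists in each tumour on a log axis, TKO in red and DKO in blue. Adult fibre markers reach 14100 CPM in TKO2 and 651 CPM in TKO1, while immature fibre markers are highest in TKO1 (630 CPM).

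The genes most like each of the 8 fitted members over the 6 libraries were found by the mean absolute difference of centred log2 CPM. For Myod1 these were Dok7, a docking protein of the muscle endplate, and Rbm24, a muscle RNA-binding protein, at 0.52 and 0.56 log2 units. Dok7 had 64.2, 3.17 and 1.42 CPM in TKO1, TKO2 and TKO3 and at most 0.118 CPM in DKO. For Myog they were Lrrn1 and the lipoxygenase gene Alox5 (0.57 and 0.62), and for Mymk Dynap and again Dok7 (0.43 and 0.56). For Des they were Ryr1, the calcium release channel, and Tnnt3, a fast troponin (0.83 and 0.86). Myf6 lay nearest to the leukocyte genes Ly6c2, which has a near-identical copy in Ly6c1, and S100a9 (0.21 and 0.34), with Ly6c2 at 2.66 CPM in TKO1, 22.8 in TKO2, 3.81 in TKO3 and at most 0.0592 CPM in DKO. Mef2c lay nearest to Dync1i1 and the integrin gene Itga4 (0.32 and 0.45), Pax3 to Angpt4 and Adgrd1 (0.62 and 0.74), and Msc to Tcea3 and Hspb1 (0.25 and 0.27). The measure is a likeness over 6 libraries and no test was made of it.

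The labels give 1 male and 2 female tumours per group, and TKO1 and DKO1 are the males. The sex of the mouse and whatever else sets TKO1 apart cannot be told apart. A test of the interaction of genotype and sex called 0 of 15361 genes by edgeR (percent called 0), with 2504 at an unadjusted p under 0.05, and 0 by limma-voom and 1272 by DESeq2.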

How the data were processed

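Oligo(dT)-selected RNA of whole tumour pieces was sequenced, per the labels' protocols, on an Illumina HiSeq. The authors deposited raw counts of reads per gene, by library and as 1 table of the series. STAR 2.6.1 and mm10 come from the submitters' processing notes; the sources used here give no annotation release. The series table was used, and it equals the either-strand column of the library files. The strand columns hold near equal totals (50.2 to 51.3% on the first), so the counting ignored strand: genes that overlap, antisense ones included, are not separable. Reads in more than 1 gene (5.1 to 6.53% of a file) or at several places (3.94 to 4.7%) count for none. The 4 unassigned lines, with unmapped reads at 2.53 to 3.2% and reads in no gene at 5.33 to 9.3%, were left out. GENCODE M21 (GRCm38) gave symbols for 55154 of 56196 IDs, positions and exon lengths.

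Genes were kept by filterByExpr (minimum count 10) and scaled by TMM. The contrast of TKO with DKO used the quasi-likelihood test of edgeR 4.0.16 (R 4.3.3) without covariates, with Benjamini-Hochberg adjustment over 15361 genes and a threshold of 0.05. CPM divide counts by the TMM-scaled library size. Each SE is the absolute log2 fold change divided by the square root of the quasi-likelihood F statistic, and is not a separate estimate of spread. Folds against a group at 0 use 3 counts over the group. Exact intervals are at 95%. A prior count of 2 was used for log2 CPM. DESeq2 1.42.0, limma-voom (limma 3.58.1), other scalings, no filter, the replicate block, sex and leaving out each library were alternatives.

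The 10 genes and all lists were chosen with earlier results of these data known. Named genes are the 10, up to 4 per list with the smallest p, and 2 nearest by pattern for each fitted member. 1 gene that the rule names is not reported here. Genes named after their values were seen are Mymx, Id2, Chrna1, Ncam1, Myh8, Acta1, Tnnc2, Tagln, Runx2, Ms4a1, Sox10, Tyr, Nkx2-5, Synpo2 and Smtn. On simulated data for TKO against DKO (15361 genes, 3 runs), 85.7% of 16-fold changes were recovered, and each run made 8.67 false calls on average.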

Additional observations from a re-analysis of the deposited data

Results flagged for a closer look

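Of the 159 genes in the lists outside the 10, 17 moved in opposite directions in the male and the female tumours. In 10 of them the male TKO1 was below the male DKO1 and both female TKO tumours were above both female DKO tumours, and in 7 the reverse held. The share of all tested genes with such a pattern was not counted, so nothing is read from the number. Of the 17, 9 are named in the text. The male difference, TKO1 minus DKO1, was -4.9 CPM for Cdh2, -1.16 CPM for Mdfi, -7.94 CPM for Sp7, -5.08 CPM for Synm, -22.8 CPM for Ibsp, -0.329 CPM for S100b, -42.6 CPM for Mitf and -38.6 CPM for Runx2. The female difference of means was 237, 52.8, 319, 75, 2140, 1.68, 11.8 and 99.6 CPM in the same order. Chrna1 had a male difference of 213 CPM and a female one of -13.1 CPM. The interaction of genotype and sex did not pass edgeR's threshold for any of these 9, with adjusted p-values of 0.0967 to 0.312. The male contrast is 1 tumour against 1. None of the 10 commitment and fusion genes showed either pattern.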

How the results depend on the processing

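With 3 tumours a group, the number of calls depended on the test and on single libraries. Over all genes, edgeR called 751 higher and 380 lower. DESeq2 called 1784 higher and 1108 lower, the replicate block 212 and 83, and leaving out 1 library gave 0 to 1575 higher and 0 to 810 lower. Of the genes in the fixed lists, 52 were called higher, 31 by limma-voom, 32 with the replicate block and 0 to 71 with 1 library left out. None was called lower by edgeR, while DESeq2 called 1, Tnni3, and leaving out 1 library gave 0 in each case. The 10 commitment and fusion genes were chosen with these values known, so calls among them show only how the number depends on the processing. Of these 10 genes 1 was called, 4 by DESeq2 (Des, Mef2c, Myf6 and Myod1), 4 with sex as a covariate (Des, Mymk, Myod1 and Myog) and 0 to 5 with 1 library left out. With the replicate block the 1 call was Myog in place of Myf6, and the satellite cell, inhibitor, immature fibre and smooth muscle lists had 0 calls, against 3, 2, 2 and 2. The interaction with sex had 0 calls, but 1609 without the count filter and 1272 by DESeq2. The log2 fold change of Pax3 was 1.49 and turned to -1.14 by limma-voom, -0.15 with the replicate block and -0.82 without TKO replicate 3 (-0.82 to 2.37 over the libraries left out). That of Mitf was -0.28 and turned to 0.37 without DKO replicate 1 (-0.64 to 0.37). The causes were not tested. The 8 fitted members otherwise kept their direction over 104 values, of which 8 moved by more than 1 SD, for Myod1, Myog, Myf6 and Mymk. These were the values by limma-voom and those without the tumour highest for the gene. Without TKO1, Myod1 went from 12.35 to 9.02, Myog from 12.69 to 9.25 and Mymk from 11.4 to 6.65. Without TKO2, Myf6 went from 10.54 to 8.75. All of these genes have no DKO count, and their fitted folds also depend on the prior count. The labels do not say that the numbers pair tumours, so the main fit has no block. Over all tested genes, deviations of same-numbered tumours had correlations of -0.0167 to 0.00889. Tumours of different number had -0.00927 to 0.0174. A pairing that acts on few genes would not show in such correlations, so they cannot exclude it. Scalings moved the median log2 fold change of all genes from 0.09 to at most 0.12. Depth limits Pax7 and Msc most, with 12 and 72 counts over the 6 libraries.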
